A study of Homo sapiens with 2 samples.

Results

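The data described here cover 9 genes that feed into or restrain JAK-STAT3 signalling, read from a table of 2046 genes: the suppressors of cytokine signalling SOCS1, SOCS2 and SOCS3, the tyrosine phosphatases PTPN1, PTPN2 and PTPN6, the receptors LIFR and OSMR, and the cytokine IL6. They were chosen by gene symbol, and all 9 were found. The study compared 2 RNA-seq libraries, 1 from wild-type MDA-MB-231 cells (genotype TAMER+/+) and 1 from the same line labelled TAMER-/-, which the series design names as a TMEM25 knockout. MDA-MB-231 is a human triple-negative breast cancer line, and both cultures were kept in DMEM with serum and no further treatment is named in the labels. The labels do not say whether the knockout cells were 1 clone or a pool. By its title, the series is about activation of STAT3 by the monomeric epidermal growth factor receptor.

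In this pathway, IL-6 family cytokines bring together receptors that carry JAK kinases, the JAKs phosphorylate STAT3, and STAT3 moves to the nucleus and binds DNA. SOCS proteins are made in response to that signal and close a feedback loop, because they bind JAKs or receptors through an SH2 domain, block the kinase or mark it for destruction. Tyrosine phosphatases of the PTPN family remove the phosphate from JAKs, STATs and receptors. LIFR and OSMR each pair with the shared subunit gp130, and IL-6 is the founding ligand of the family.

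Every gene of the table was at least 2 times higher in the knockout library, so the direction of the 9 genes was fixed by the table and is no finding. Genes outside the table, TMEM25 and STAT3 among them, were not analysed here, so TMEM25 RNA could not serve as a check of the labels. Which library is the knockout was taken from the headers of the value, count and ratio columns, while the authors' log2 columns carry the opposite headers. With 1 library per genotype there was no replicate spread and no test, and in RNA from whole cultures fewer cells of a kind and less RNA per cell cannot be told apart. The 9 genes had 25.04 to 4434 reads in the knockout library and 0 to 1831 in the wild-type library, and the intervals given below cover counting error in these reads only. Of the luminal breast markers, 2 of 12 were in the table, beside 10.4% of all protein-coding genes with an Entrez number. TFF1 was at 5920.23 in the knockout and 0.94 in the wild-type library, from 50724 and 7 reads. TFF3 was at 127.85 and 3.68, from 2447 and 61 reads. Of the mesenchymal or fibroblast markers, which include vimentin, 0 of 13 were in the table, beside the same 10.4%. The identity of the line was therefore not checked by them. The part of such markers in the values below was not tested.

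Sequence before annotated transcript starts of 3 of these genes is shown because it holds the letters of a STAT-type or a kappa-B motif, the recognition patterns of the STAT and NF-kB transcription factors. RefSeq promoter windows on GRCh38.p14 were matched for 8 of the 9 genes, 12 windows in all. SOCS2 had no window and was not searched. In the 12 windows, the 250 bases before each start were searched on both strands. The STAT-type motif TTCNNNGAA was found in 2 of the 12 windows, both at LIFR, and in 6.57% of all 35116 windows of the same length. The kappa-B motif was found in 2 windows, at IL6 and SOCS1, and in 6.88% of all windows. TGANTCA, the AP-1 pattern, was in 0 of the 12 and in 6.57% of all. A match is a description of the letters, not evidence of binding. No window took in the bases just before the outermost GENCODE start of SOCS3, PTPN2, LIFR or IL6. Motifs there were not searched for, so the lack of a match at SOCS3 or PTPN2 describes other starts only. The sequences run 5′ to 3′ on the strand of the gene, with the match in capitals. The first LIFR window is chr5:38595406-38595655 on the minus strand, with the match TTCCTTGAA at position -165 from the start, and the second is chr5:38557468-38557717, with TTCATCGAA at -182. The IL6 stretch is chr7:22726950-22727146 on the plus strand, ending before the first annotated exon in the window, with GGGATTTTCC at -73. Both LIFR windows and the IL6 stretch lie inside the GENCODE span of their gene, before starts other than the outermost one. So do windows not shown here: that of PTPN2 and a window each of LIFR, SOCS3 and PTPN6. The SOCS1 window lies upstream of its gene and is chr16:11256205-11256454 on the minus strand, with GGGGCCTCCC at -67.
LIFR, first window: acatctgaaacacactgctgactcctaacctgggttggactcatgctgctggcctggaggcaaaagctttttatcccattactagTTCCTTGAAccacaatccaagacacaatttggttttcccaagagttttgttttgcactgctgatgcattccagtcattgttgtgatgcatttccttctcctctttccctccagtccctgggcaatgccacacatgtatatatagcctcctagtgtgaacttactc
LIFR, second window: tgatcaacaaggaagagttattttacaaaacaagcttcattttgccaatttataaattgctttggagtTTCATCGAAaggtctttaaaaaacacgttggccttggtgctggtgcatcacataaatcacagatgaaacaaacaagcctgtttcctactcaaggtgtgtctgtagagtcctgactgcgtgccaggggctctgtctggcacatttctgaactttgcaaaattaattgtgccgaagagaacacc
IL6: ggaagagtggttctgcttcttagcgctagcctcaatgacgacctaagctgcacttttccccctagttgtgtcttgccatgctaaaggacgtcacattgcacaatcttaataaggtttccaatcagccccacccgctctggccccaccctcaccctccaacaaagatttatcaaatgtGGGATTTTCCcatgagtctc
SOCS1: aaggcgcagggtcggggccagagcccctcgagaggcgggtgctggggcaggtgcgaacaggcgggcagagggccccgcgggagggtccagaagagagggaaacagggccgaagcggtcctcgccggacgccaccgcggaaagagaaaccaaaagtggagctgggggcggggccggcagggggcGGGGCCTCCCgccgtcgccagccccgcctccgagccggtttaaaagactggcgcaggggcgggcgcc

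The windows also differed in base composition. The SOCS1 window was 74.0% G and C with 27 CpG pairs, against a median of 58.0% and 11 pairs over all windows. The LIFR windows shown had 45.2% and 40.8%, with 0 and 4 CpG pairs, while a further LIFR window, without a STAT-type match, had 83.6% and 44 pairs. The GC box GGGCGG was found in windows of LIFR, OSMR, PTPN1, PTPN6 and SOCS1, in 6 of the 12, and in 42.6% of all windows. Which of the LIFR starts was used in these cells cannot be read from counts per gene.

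SOCS1, SOCS2 and SOCS3 were scarce in the wild-type library, and that they were higher in the knockout library was fixed by the table. SOCS1, which inhibits JAK kinases directly, had a deposited expression value of 0.42 in the wild-type and 7.84 in the knockout library. It had 8 and 174 reads. The deposited values name no unit and were taken as scaled for gene length and depth. The read-count fold, which is the ratio of reads after division by 1.16 because the knockout library had that many times more reads for the same expression value, was 18.8 for SOCS1, with a 95% counting interval of 9.35 to 44.3. SOCS3, the inhibitor that binds gp130 and JAKs and is itself a STAT3 target, was at 0.32 and 2.42, from 14 and 123 reads, a fold of 7.60 (4.36 to 14.3). SOCS2, best known for restraining growth hormone signalling, had 0 wild-type reads and 97 knockout reads, and was higher by 28.0-fold with 3 reads in place of the 0. The counting interval of SOCS2 began at 22.3 and had no upper limit. The authors put a value of 0.1 where a wild-type count is 0, so the deposited ratio of 22.9 for SOCS2 depends on that number. All 3 SOCS genes together had 22 wild-type reads, and the 95% intervals of the SOCS1 and SOCS3 folds overlapped.

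Within each library SOCS1 and SOCS3 could be set side by side without any scaling between libraries. SOCS1 was 1.31 times SOCS3 in the wild-type library and 3.24 times in the knockout library, in deposited values. From the reads, that proportion differed 2.47-fold between the libraries with an interval of 0.93 to 7.01, which includes 1. The 8 and 14 wild-type reads therefore did not resolve whether both inhibitors differed by the same factor. Each SOCS gene was below PTPN6 in both libraries. SOCS1 overlaps RMI2 on the opposite strand and SOCS2 overlaps SOCS2-AS1, and since strand use in the counting is not stated, reads of these partners cannot be told apart from theirs.

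**Figure D1:**
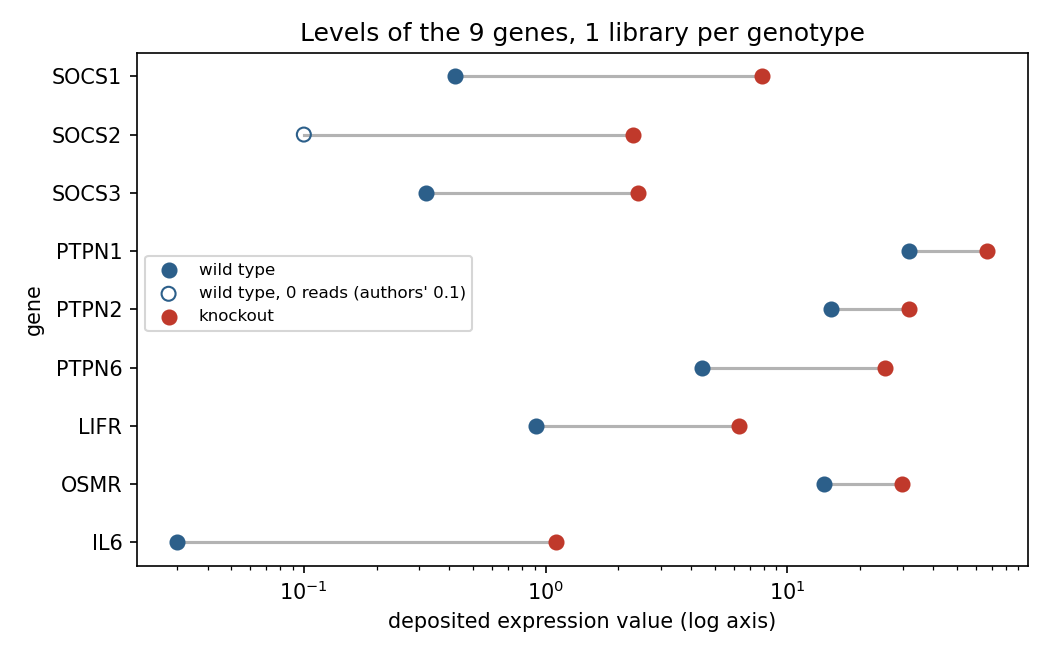
Deposited expression value of each of the 9 genes (log axis) in the wild-type library (blue) and the knockout library (red), joined by a grey line, with 1 library per genotype and no error bar. The SOCS genes lie between 0.32 and 0.42 or at 0 reads (open circle) in the wild-type library, and PTPN1 is the highest gene in both, at 31.94 and 66.86.

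PTPN1 and PTPN2 had the highest levels of the 9 genes, and PTPN6 came after OSMR. By fold the phosphatases separated into a pair close to the table's limit and PTPN6 well above it. PTPN1, also called PTP1B, which acts on JAK2 and on the insulin receptor, was at 31.94 in the wild-type and 66.86 in the knockout library, from 1831 and 4434 reads, a read-count fold of 2.10 (1.98 to 2.21). PTPN2, also called TC-PTP, its closest relative, which acts on JAK1, JAK3 and STATs, was at 15.07 and 31.85, from 466.66 and 1014.66 reads, a fold of 1.88 (1.68 to 2.10). Both intervals included 2, so the reads did not place either gene above or below 2-fold. PTPN6, also called SHP-1, an SH2-domain phosphatase found mainly in blood cells and at lower level in epithelia, was at 4.43 and 25.31, from 154 and 1021 reads. Its fold of 5.74 had an interval of 4.84 to 6.84, which overlapped neither of the others. PTPN1 overlaps the antisense RNA AL133230.1 and small RNA genes. PTPN2 overlaps the processed pseudogenes STK25P1 and EIF4A2P1 on the opposite strand. As for SOCS1 and SOCS2, reads of these partners cannot be told apart from theirs.

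PTPN1 stayed in nearly the same proportion to PTPN2. It was 2.12 times PTPN2 in the wild-type library and 2.10 times in the knockout library, and the reads gave a change of 1.11-fold in that proportion with an interval of 0.98 to 1.26. PTPN1 was 7.21 times PTPN6 in the wild-type library but 2.64 times in the knockout library, a change to 0.37 of the former proportion (0.30 to 0.44). In units of expression rather than ratios, PTPN1 had the widest difference of the 9 genes, 34.92, against 20.88 for PTPN6 and 16.78 for PTPN2, and 7.42 for SOCS1. The order of the genes by difference was thus not their order by fold. Of 14 leukocyte markers, 2 were in the table, where 10.4% of all protein-coding genes with an Entrez number were listed. LCP1, an actin-bundling protein, was at 1.79 and 13.65, and CORO1A, a coronin, at 0.20 and 5.09, summed values of 1.99 and 18.74. The common leukocyte antigen PTPRC and the other 11 markers were not analysed here. Both libraries are labelled as MDA-MB-231 cells, and any leukocyte RNA in the PTPN6 values was not tested for.

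The receptors LIFR and OSMR, neighbours on chromosome 5, were unequal in both libraries. LIFR, which binds leukemia inhibitory factor, was at 0.91 in the wild-type and 6.33 in the knockout library, from 145.14 and 1208.25 reads, a fold of 7.21 (6.07 to 8.63). OSMR, which binds oncostatin M and also serves IL-31, was at 14.10 and 29.79, from 793.97 and 2266.28 reads, a fold of 2.47 (2.28 to 2.68). OSMR was the more abundant receptor in both libraries, by 15.5 times in the wild-type and 4.71 times in the knockout library. That proportion moved to 0.34 of its wild-type size by reads, with an interval of 0.28 to 0.42, and to 0.30 by expression values. LIFR overlaps LIFR-AS1 and OSMR overlaps RICTOR, both on the opposite strand.

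The reads and expression values of OSMR and PTPN2 went apart, as they did by over 5% in part of the table, where 86.4% of 1133 genes lay within 5% of the median. OSMR had 56.3 reads per unit of expression in the wild-type library and 76.1 in the knockout library, a ratio of 1.35, which is 16.9% above the median of 1.16 over 1133 genes with a wild-type count of 100 or more. Of these 1133 genes, 4 had a ratio as high or higher, OSMR included. PTPN2 lay on the other side at 1.03, while PTPN1, PTPN6 and LIFR were at 1.16, 1.16 and 1.20. IL6 was further off, at 0.63, but its 1.09 wild-type reads left it outside the 1133 genes. The deposited ratio of OSMR was accordingly 2.11 where its read-count fold was 2.47, and that of PTPN2 was 2.11 where its read-count fold was 1.88. Scaled by its own reads per unit of expression, OSMR no longer had an interval above 2. The cause was not tested.

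IL6 was barely detected. It was at 0.03 in the wild-type and 1.10 in the knockout library, from 1.09 and 25.04 reads, where counts that are not whole are estimates that divide reads between features. The fold by reads was 19.9 with an interval of 3.54 to 888, and the deposited ratio was 36.7, the highest of the 9. Since values were deposited with 2 decimals, rounding alone allows a deposited ratio of 31.3 to 44.2, a range that does not include the fold by reads. IL6 overlaps STEAP1B and an antisense RNA on the opposite strand. In the knockout library it was the lowest of the 9 genes, with a 95% counting interval of its level from 0.71 to 1.62, below that of SOCS2 (1.86 to 2.79).

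The order of levels was similar in both libraries. From the top it ran PTPN1, PTPN2, OSMR and PTPN6 in both, and the intervals of PTPN2 (13.7 to 16.5) and OSMR (13.1 to 15.1) overlapped in the wild-type library, as they did in the knockout library (29.9 to 33.9 and 28.6 to 31.04). LIFR, SOCS1 and SOCS3 followed in the wild-type library, and SOCS1, LIFR, SOCS3, SOCS2 and IL6 in the knockout library. SOCS1 and LIFR thus stood in the opposite order. Their intervals overlapped in the wild-type library (0.18 to 0.83 for SOCS1, 0.77 to 1.07 for LIFR) and were just apart in the knockout library (6.72 to 9.10 and 5.98 to 6.70). The proportion of SOCS1 to LIFR was 0.46 and 1.24, a change of 2.61-fold (1.26 to 6.27). SOCS3 and SOCS2 could not be separated in the knockout library, at 2.42 and 2.29. The 4 comparisons of proportions above and those of SOCS1 with LIFR and PTPN6 were 6 pairs chosen with the values known. SOCS1 against PTPN6 moved from 0.095 to 0.31, by 3.28-fold (1.58 to 7.87).

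**Figure D2:**
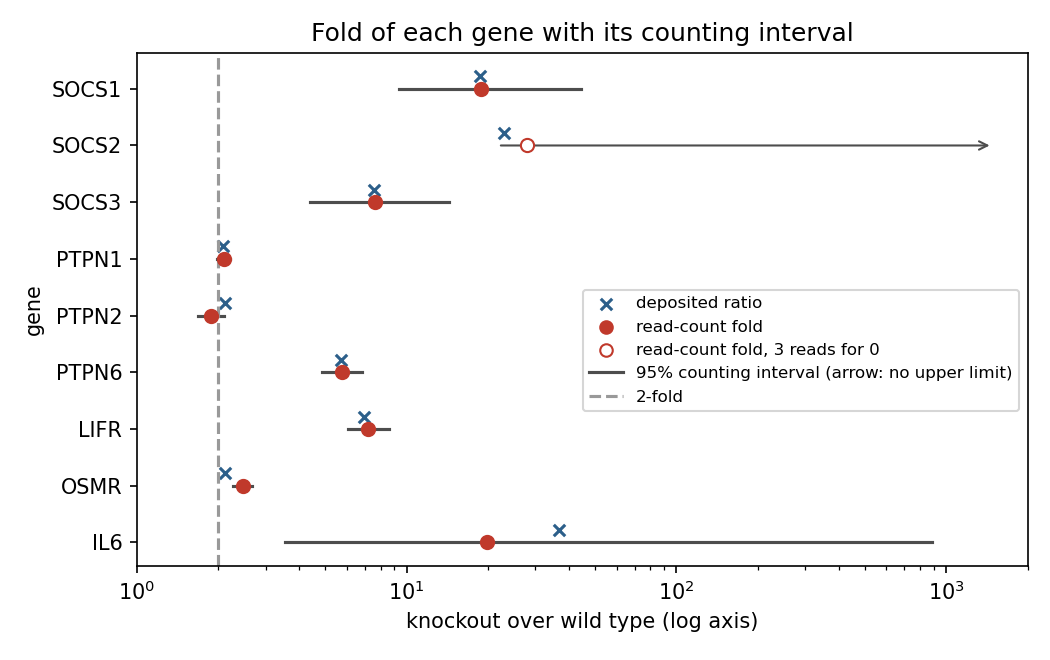
Knockout over wild type for each of the 9 genes on a log axis, as the read-count fold (red) with its 95% counting interval (line) and as the deposited ratio (blue crosses), with 2-fold dashed. SOCS2 had 0 wild-type reads, so its open circle at 28.0 takes 3 reads in their place and its arrow begins at the lower limit of 22.3, and the intervals of PTPN1 and PTPN2 include 2.

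Counts of the 9 genes past a given fold were set beside the same share of the whole table. On the log2(value + 1) scale, which understates the ratio of low genes, all 9 reached 2-fold, beside 80.6% of the 2046 genes, and the table's own limit leaves nothing to read from this. A 4-fold difference on that scale was reached by 2 of 9, SOCS1 and PTPN6, with log2 ratios of 2.64 and 2.28, beside 21.3% of all genes. By the deposited ratio 6 of 9 were at least 4, namely the SOCS genes, PTPN6, LIFR and IL6, beside 41.2% of all genes. The lower limit of the counting interval lay above 2 for 7 of 9, beside 76.5%. The median log2 ratio on the log2(value + 1) scale was 1.37 for the 9 genes and 1.33 for all 2046. The median deposited ratio was 6.96 and 3.33, and the median wild-type value was 0.91 and 2.91. The 9 genes were chosen with earlier results of these data known. By deposited ratio IL6 stood at place 148 of 2046, SOCS2 at 218, SOCS1 at 253, SOCS3 at 491, LIFR at 533 and PTPN6 at 627, whereas PTPN2, OSMR and PTPN1 stood at 1880, 1882 and 1903, near the end of the table. The folds thus fell in separate ranges, with PTPN1, PTPN2 and OSMR at 1.88 to 2.47 and the other 6 at 5.74 or more.

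**Figure D3:**
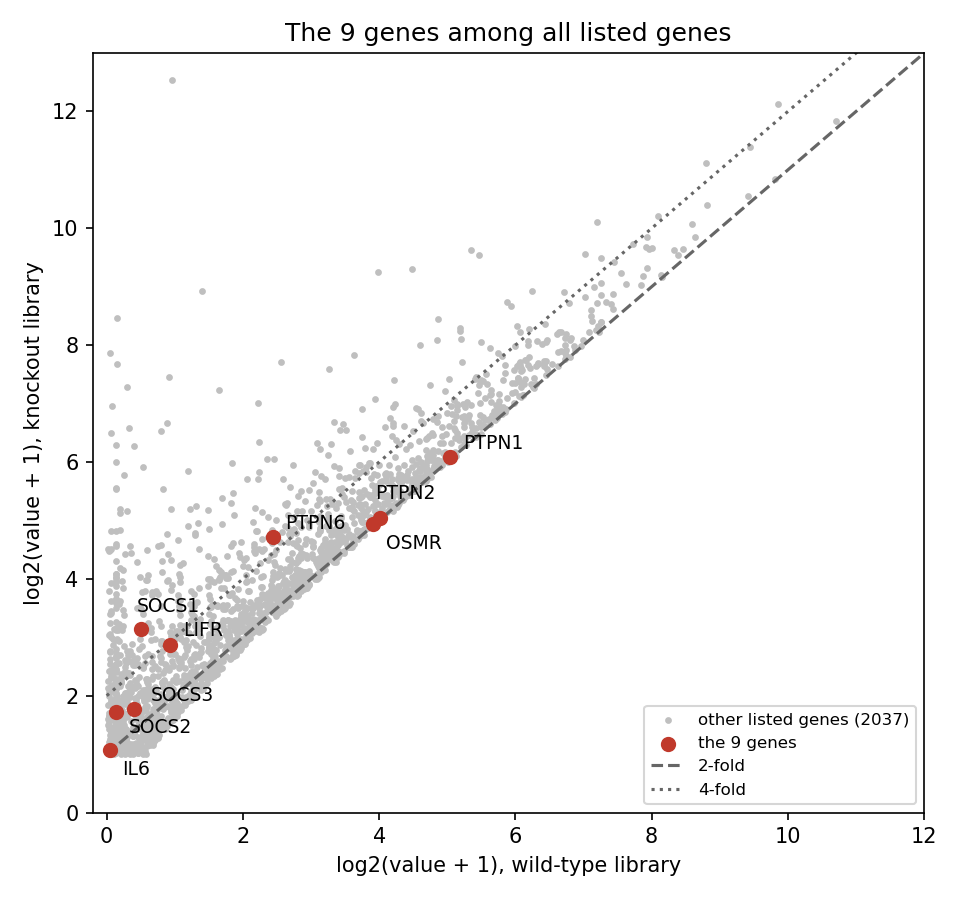
Level of each of the 2046 listed genes as log2(value + 1) in the wild-type library (x axis) and the knockout library (y axis), with the 9 genes in red and lines at 2-fold and 4-fold. SOCS1 and PTPN6 lie above the 4-fold line, while PTPN1, PTPN2, OSMR and IL6 lie close to the 2-fold line, which 80.6% of the listed genes reach.

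Outside the 9 genes, 12 further members of the families of this pathway were listed. Of the 8 SOCS family genes 3 were in the table, all named above, so CISH and SOCS4 to SOCS7 were not analysed here, nor were any of 11 JAK and STAT genes or 6 partners that the SOCS box recruits for ubiquitination. Among 110 genes of these families and their receptors, 21 were listed, beside 10.4% of all protein-coding genes with an Entrez number, and the 9 genes had been picked from those listed. Of the 12 outside the 9, 9 reached 2-fold and 3 reached 4-fold on the log2(value + 1) scale, beside 80.6% and 21.3% of the whole table. Of 17 non-receptor tyrosine phosphatases 5 were listed, with PTPN18 at 9.76 and 27.35 and PTPN4 at 1.43 and 3.43 beside PTPN1, PTPN2 and PTPN6. PTPN6 had the highest fold of these 5. Receptor tyrosine phosphatases gave 3 of 20. PTPRK, which acts at cell contacts, was at 10.42 and 92.99, a fold of 9.10 (8.53 to 9.72). PTPRG was at 0.04 and 4.43 from 4 and 687 reads, a fold of 148.7 (57.8 to 547), and PTPRE at 0.57 and 2.04.

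Of 10 IL-6 family ligands 2 were listed, IL6 and CLCF1, a ligand of the ciliary neurotrophic factor receptor, at 1.20 and 3.92 with a fold of 3.26 (2.23 to 4.88). Of 9 receptors of the family 3 were listed, LIFR, OSMR and IL27RA, the last at 3.45 and 8.95 with a fold of 2.60 (2.15 to 3.15). The shared subunit IL6ST (gp130) and the IL-6 receptor IL6R were not analysed here. USP18, an inhibitor of interferon receptor signalling, was at 3.16 and 9.16, 1 of 10 further inhibitors. Of 19 other receptors that SOCS or PTPN proteins act on, 4 were listed. MET, the hepatocyte growth factor receptor, was at 0.22 and 4.93 with a fold of 19.6 (12.8 to 31.0), and INSR, the insulin receptor on which PTPN1 acts, at 1.23 and 4.56 with a fold of 3.71 (3.16 to 4.38). IFNAR2, the interferon receptor chain, was at 1.47 and 7.49, and IL4R at 1.64 and 4.11. STAT3 target genes, a list chosen with earlier results known, gave 12 of 27, beside 10.4% of all protein-coding genes with an Entrez number. Their median log2 ratio was 1.83, beside 1.33 for all 2046 genes, with SOCS3 at 1.37, PIM1 at 0.71 and TIMP1 at 5.16. On that scale 10 reached 2-fold and 5 reached 4-fold, beside 80.6% and 21.3% of the whole table. The part of STAT3 in these values was not tested.

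**Figure D4:**
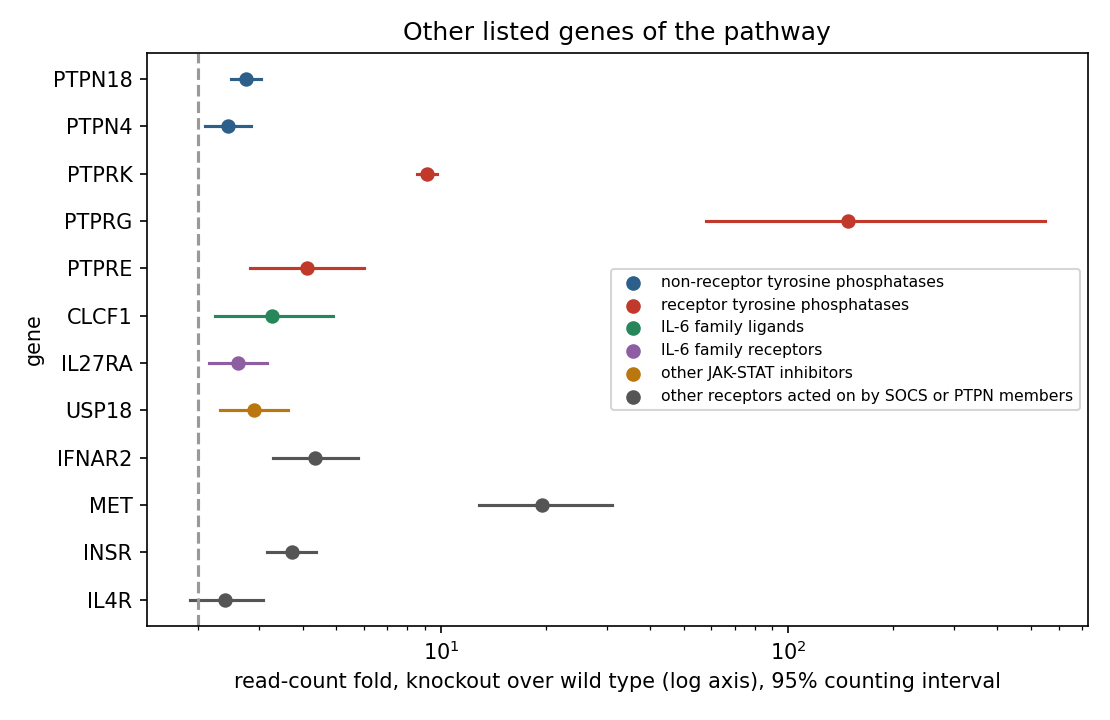
Read-count fold, knockout over wild type (log axis), of the 12 listed pathway genes outside the 9, with 95% counting intervals and colours by gene list, and 2-fold dashed. PTPRG, MET and PTPRK have the highest folds, at 148.7, 19.6 and 9.10, and the interval of IL4R reaches below 2.

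The genes lie apart on 7 chromosomes except for 2 pairs that share one. Positions are from GENCODE 29 on GRCh38. LIFR (5:38474963-38608354, minus strand) and OSMR (5:38845858-38945596, plus strand) are 237503 bases apart with 0 protein-coding genes between them. SOCS2 (12:93569814-93583487) and PTPN6 (12:6946468-6961316) share chromosome 12 but not a neighbourhood. SOCS1 lies at 16:11254405-11256200, SOCS3 at 17:78356778-78360077, PTPN1 at 20:50510321-50585241, PTPN2 at 18:12785478-12929643 and IL6 at 7:22725884-22732002. Of the 19373 protein-coding genes with an Entrez number, 10.4% were in the table, and the share of unlisted genes that these cells express was not analysed here.

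Listed neighbours within 1000000 bases were most numerous around PTPN6 and PTPN1. At PTPN6, 21 of 57 protein-coding neighbours were listed (36.8%), including C12orf57, 465 bases away, at 14.31 and 134.51, and PHB2, a prohibitin, at 36.02 and 107.71. At PTPN1, 8 of 18 were listed (44.4%), including CEBPB, an acute-phase transcription factor, at 16.60 and 60.51, and PARD6B, a cell polarity protein, at 12.04 and 55.34. The SOCS genes had 2 of 23, 0 of 9 and 0 of 21 listed neighbours for SOCS1, SOCS2 and SOCS3, PTPN2 had 2 of 19 and IL6 0 of 15. LIFR had 2 of 8, OSMR and GDNF, and OSMR had 1 of 6, LIFR. Windows differ in how many of their genes are expressed, and the part of copy number in these values was not tested.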

How the data were processed

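Total RNA of 2 cell-line samples was sequenced, and 1 table with values of both was used. CASAVA 1.4, HISAT2 2.0.4 and build GRCh38.p12 are listed in the submitters' processing notes, while the counting tool, annotation and strand setting are not stated in the labels or headers. Per the file headers, the authors gave each gene an expression value, handled as a signal per gene length and depth since no unit is named. The authors also deposited an expected count of reads, which is not whole in 4 of the 9 genes. The deposited ratio is knockout over wild-type value in 2046 of 2046 genes (tolerance 1e-06). The log2 columns of the authors have crossed headers and were not used. Columns not matched to a sample numbered 0.

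The log2 ratio used a pseudocount of 1 and a minimum value of 1 in either library, which 2046 genes passed. For the read-count fold, knockout over wild-type reads were divided by 1.16, the median over 1133 genes of how many more reads the knockout library had at equal expression value. Its exact conditional binomial interval (95%, rounded counts), the exact Poisson interval of a level and the floor of 3 reads per library where none was counted take in counting error alone. Reads lacked molecular identifiers, so they are not independent molecules. Proportions of 2 genes were compared by the exact conditional odds ratio (scipy 1.17.1). Library totals were not formed because part of each library was held, so depth is given as reads per gene. The genes and lists were chosen with earlier results of these data known. The text names the 9 genes, listed genes of the pathway and marker lists and, for 8 of the 9, the gene nearest in level, while the result for LIFR and 1 gene list are not reported here. Alternatives were other pseudocounts, filters, scalings and interval levels.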

Additional observations from a re-analysis of the deposited data

How the results depend on the processing

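The ratio as deposited and the scaling by each gene's own reads per unit of expression were chosen after seeing the data. All 9 genes reached 2-fold, but 2 did so with a pseudocount of 5 and 4 when a mean of at least 5 over the libraries was required, each lower by construction. The 2 genes that reached 4-fold became 6 with a pseudocount of 0.1, 6 by read counts and 6 by the ratio as deposited, and 0 with a pseudocount of 5, since a pseudocount lowers the ratio of low genes. With a mean of at least 5 required, 1 was left. The count of 7 genes with an interval above 2 was 8 without scaling, 7 with 99% intervals and 6 with each gene's own scaling. The limit of the table fixes the sign of the ratio of expression values whatever the pseudocount. Of the 9 log2 ratios, 4, 7, 5 and 5 moved by more than their counting error with pseudocounts of 0.1 and 5, the ratio as deposited and read counts. Depth limits SOCS1, SOCS3, SOCS2 and IL6, at 8, 14, 0 and 1.09 wild-type reads. No paired analysis was possible because each genotype had 1 library.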

Other observations

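For 8 of the 9 genes the gene outside them with the closest pair of levels was found, by distance in log2(value + 1) over the 2 libraries, which is too few for a pattern and describes levels only. SOCS1 was closest to ACPP, at 8.52 in the knockout and 0.52 in the wild-type library (distance 0.15), and SOCS3 to FCMR, at 2.43 and 0.33. SOCS2 was closest to MME, a membrane metalloendopeptidase at 2.34 in the knockout library. MME also had the value 0.1 in the wild-type library, the number that SOCS2 was given for 0 reads. PTPN1 was closest to DCAF7 (64.4 and 31.63) and PTPN6 to DBP (25.44 and 4.17). PTPN2 was closest to IL13RA1, a subunit of the interleukin-13 receptor, at 32.25 and 14.87. OSMR was closest to MAP7 (29.93 and 14.27) and IL6 to MSX1 (1.09 and 0.03).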
